A study of Homo sapiens with 68 samples.

Results

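U2 is one of the small nuclear RNAs of the spliceosome. Packed with proteins into the U2 snRNP, it base-pairs with the branch point of an intron and helps to position it for the first splicing reaction. RBFOX2 is a sequence-specific splicing regulator that binds pre-mRNA near alternative exons, and hnRNPA1, hnRNP C and hnRNPI (PTB) are abundant nuclear proteins that bind pre-mRNA. None of these 4 proteins is a core part of the U2 snRNP. U2 is encoded by several near-identical copies and is among the most abundant RNAs of the nucleus.

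The values here describe 2 loci in crosslinking and immunoprecipitation (CLIP) libraries. The first is the window chr11:62609091-62609281 (hg19, minus strand, 191 nt), which holds a copy of U2 and whose peaks the lists assign to the protein-coding gene WDR74 (ENSG00000133316). In the RefSeq table of GRCh38.p14, the 191-nt small nuclear RNA gene RNU2-2 of chromosome 11 lies within WDR74. The second is ENSG00000223001 on chromosome 6, where peaks were listed between 89773287 and 89773359 (hg19, minus strand, 73 nt). The tables used here pair no name with this identifier, and its sequence was not analysed here. The 2 loci were picked because their read numbers were high in RBFOX2 libraries, so their levels in RBFOX2 are described and not tested.

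All peaks carrying either gene identifier were taken, which gave 597 of 15800601 peaks in 68 libraries. Of these, 471 lay in the U2 window and 126 on chromosome 6. WDR74 had 0 listed peaks outside the U2 window, so nothing below concerns the rest of that gene. The U2 window was listed in all 68 libraries, with 1 to 17 peaks each (median 6). The chromosome 6 locus was listed in 59 libraries. It was missing from the 8 libraries of other gel regions and from replicate 1 of hnRNP C with low RNase, which stood apart with 3268 peaks.

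The study used TLC-CLIP on HEK293T, a human embryonic kidney cell line, to compare what each step of the protocol adds. The 68 libraries form 34 groups of 2, with antibodies to hnRNPA1, hnRNP C (hnRNPc in the labels), hnRNPI and RBFOX2 (antibody named RBM9). The reference protocol used 50000 cells, ultraviolet (UV) crosslinking, 0.005 U of RNase and excision of the protein-RNA complexes after gel electrophoresis (PAGE). Variants left out PAGE, added a RecJ exonuclease digestion, left out UV, or used 0.025 U of RNase. RBFOX2 and hnRNP C were also profiled from libraries titled 10k, with 0.001 U of RNase, and 1k, with 0.0001 U. For hnRNP C, further libraries without PAGE are titled 5k and 500, although their labels give 50000 cells. The 8 gel-region libraries came from the hnRNP C antibody and 10000 cells, and were cut at 50 to 75, 75 to 100, 100 to 150 or 150 to 250 kDa. The labels do not say whether the 2 replicates of a group came from separate cultures, so spreads and p-values may reflect technical variation only. Every sample carries the same protocol text with crosslinking, and the libraries without UV are known from their titles.

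Each list gives a read number per peak, taken here as the number of reads over it. Peaks of a gene less than 30 nt apart were joined, the highest read number of each joined set was added up per gene, and the sum was given per 1000000 of that total over all genes (RPM). RPM is a share of what a library listed, and the total listed differed widely. It was 2231383 to 8536128 reads in the 50k crosslinked libraries, except 38660 in replicate 1 of hnRNP C with low RNase, and went down to 6790 in the gel-region libraries. The depth of sequencing is unknown. How reads shared by several U2 copies were placed is not given in the sources used here, so the window may hold reads of other copies, and other copies may have lost theirs. The same bases are also listed under a second identifier, ENSG00000222328 (62609123 to 62609282), whose reads enter the total a second time.

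In RBFOX2 libraries the U2 window was the gene with the highest read number in 12 of 14 libraries and the second in the other 2. With UV and PAGE, RBFOX2 replicate 1 had 22905 reads over the highest peak and replicate 2 had 16687. These libraries reached 5021 and 4776 RPM, a mean of 4898 ± 173 (SD, n = 2). In replicate 2 the only identifier above it was ENSG00000222328, which covers the same bases. The next identifier elsewhere in the genome was ENSG00000222414, with highest read numbers of 11848 and 10611.

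Without PAGE the window was far higher in RBFOX2. The highest peaks held 163014 and 160867 reads, and the libraries reached 41171 and 39563 RPM (mean 40367 ± 1137, SD, n = 2). The second identifier on the same bases, ENSG00000222328, had 161964 and 159811 reads, and the next one elsewhere, ENSG00000222414, had 31815 and 30814. With RecJ added, the libraries reached 42287 and 40379 RPM, which overlapped the libraries without RecJ.

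The order of levels among the RBFOX2 groups ran from the RecJ and no-PAGE groups, which overlapped, through the groups without UV to the 10k, 1k and reference groups. Without UV and without PAGE the libraries stood at 27464 and 37197 RPM, and without UV but with PAGE at 22227 and 37852. These 2 groups overlapped each other and lay below the crosslinked groups without PAGE. The RBFOX2 10k libraries had 11920 and 12214 RPM and the 1k libraries 11549 and 11266. The 1k libraries thus lay just below the 10k libraries, without overlap, and the reference group was lowest. The share of all genes with 1k below 10k in this way was not computed.

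The group means of the other proteins were lower in every protocol, with hnRNPA1 lowest. With UV and PAGE, hnRNPA1 had 127 and 120 RPM, the lowest of all 34 groups, and hnRNPI had 613 and 628. The hnRNP C libraries had 4941 and 529, and the higher value came from the library with 3268 peaks, where the highest peak held 191 reads. Without PAGE, hnRNPA1 had 1061 and 859, hnRNPI 2585 and 2111, and hnRNP C 2254 and 2054. All these lay far below the RBFOX2 libraries of the same protocol. Without UV but with PAGE, hnRNPI reached 14068 and 10166, hnRNP C 1498 and 3901, and hnRNPA1 only 237 and 251. Without both, hnRNPI had 14157 and 9763, hnRNP C 2331 and 4710, and hnRNPA1 677 and 741.

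By rank within a library, the window was also near the top with the other proteins. It stood at rank 6 or better among genes in 38 of their 46 libraries, and at rank 1 in both hnRNPI libraries without UV and PAGE. In the remaining libraries, all of them hnRNPA1, its rank number was 13 to 72. It was 71 and 72 in the hnRNPA1 libraries without UV and with PAGE.

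**Figure D1:**
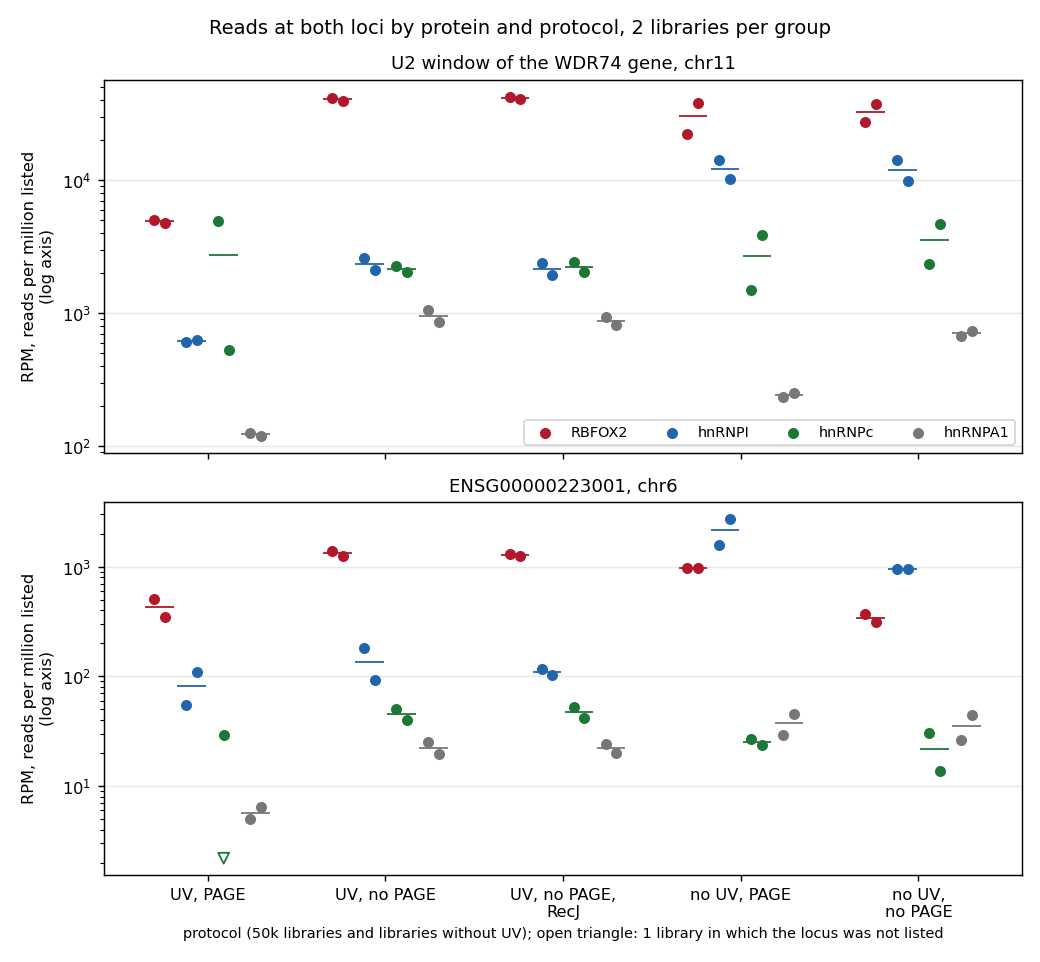
RPM (log axis) at the U2 window (top) and at the chromosome 6 locus (bottom) for 4 proteins in 5 protocols. Points are libraries and bars are means of 2. RBFOX2 with UV and without PAGE sits at 39563 and above at the U2 window. At the chromosome 6 locus without UV, hnRNPI passes RBFOX2.

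Set against the other 3 proteins within each protocol, the RBFOX2 libraries lay on average 3.97 higher on the log2(RPM + 1) scale at the U2 window (mean over 5 protocols). This contrast chose the loci and is given as a description only. With UV and PAGE, the RBFOX2 group was 39.4-fold above hnRNPA1 and 7.88-fold above hnRNPI. Both RBFOX2 libraries lay above all libraries of these proteins, but not above the hnRNP C library with 3268 peaks. Across all genes, the RBFOX2 libraries lay above all libraries of the other proteins in 23.0% with UV and PAGE, 21.1% without PAGE, 20.6% with RecJ, 8.76% without UV and 13.3% without both. In those other 4 protocols the U2 window was among these genes.

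The margin over hnRNPI was narrow without UV. Without PAGE but with UV, RBFOX2 was 17.3-fold above hnRNPI, 18.8-fold above hnRNP C and 42.2-fold above hnRNPA1. Without UV and with PAGE it was 2.43-fold above hnRNPI, 12.0-fold above hnRNP C and 119-fold above hnRNPA1. Without both it was 2.72-fold, 9.64-fold and 45.1-fold above them. In the absence of crosslinking, the U2 window was thus held in RBFOX2 and hnRNPI libraries at levels 2.43-fold and 2.72-fold apart.

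The chromosome 6 locus held far fewer reads. In the 59 libraries that listed both loci, the U2 window had 3.77 to 346 times its reads (median 29.6). In RBFOX2 with UV and PAGE the locus had 505 and 348 RPM, and without PAGE 1392 and 1256. With RecJ it had 1311 and 1258, and the 10k and 1k libraries had 559 and 596, and 554 and 541. Without UV the RBFOX2 libraries had 964 and 971 with PAGE, but 373 and 312 without it.

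The highest levels at this locus belonged to another protein. The hnRNPI libraries without UV and with PAGE had 1574 and 2700 RPM, above every RBFOX2 library, and those without both had 953 for each replicate. Crosslinked hnRNPI libraries were much lower, with 55.0 and 109 with PAGE and 180 and 92.8 without. In hnRNP C the locus stayed at or below 69.0 RPM in every library and in hnRNPA1 at or below 50.7. RBFOX2 was on average 3.82 higher than the other proteins on the log2(RPM + 1) scale over the 5 protocols, and 3.41 higher with 10 added. Against hnRNPI it was 5.35-fold higher with UV and PAGE, 10.2-fold higher with UV without PAGE, and lower without UV, at 0.469 of the hnRNPI level with PAGE and 0.359 without.

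What PAGE adds was read from libraries with and without it. In RBFOX2 the U2 window was 8.24-fold higher without PAGE, a difference of 3.04 (SD within groups 0.046, n = 2) on the log2 scale, and both libraries without PAGE lay above both with it. Of all genes in RBFOX2, 12.3% had their libraries apart in this direction and 51.3% in the other. With all peaks summed the log2 difference at the U2 window was 2.11. At chromosome 6 the level was 3.15-fold higher, and the groups did not overlap either. In hnRNPA1 the window was 7.68-fold higher without PAGE and in hnRNPI 3.76-fold, with groups apart, as for 22.7% and 24.5% of all genes in these proteins. In hnRNP C the ratio was 1.33 and the groups overlapped. At the chromosome 6 locus the ratios were 3.49 in hnRNPA1 (groups apart) and 1.66 in hnRNPI (groups overlapping). No ratio is given for hnRNP C, whose replicate 1 did not list the locus.

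The test used hnRNPA1, hnRNP C and hnRNPI only, because the loci were chosen on RBFOX2. It was an exact two-sided permutation test on the log2(RPM + 1) scale, with libraries relabelled within each protein. The smallest p that 3 proteins allow is 0.00926, and the 8 p-values of the family were adjusted by the Benjamini-Hochberg method. None of the 8 adjusted p-values was under 0.05, and 3 of the 8 unadjusted exact permutation p-values were. For omitted PAGE the mean difference was 1.75 at the U2 window, higher in 3 of 3 proteins (exact permutation p 0.0278, adjusted p 0.0741). At the chromosome 6 locus it was 1.87, in 3 of 3 proteins (exact permutation p 0.0185, adjusted p 0.0741). The chromosome 6 values take the hnRNP C library that did not list the locus as 0 and depend on the added constant, with 1.06 for omitted PAGE when 10 is added in place of 1. Replicate 1 of hnRNP C with low RNase decided the call at the U2 window. Without it the difference was 2.29 (exact permutation p 0.00926, adjusted p 0.0370), and at the chromosome 6 locus it was 1.05 (adjusted exact permutation p 0.0741).

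No difference with RecJ digestion was shown at either locus over all strata. In 5 strata of hnRNP libraries without PAGE, the mean log2 difference was -0.0094 at the U2 window (exact permutation p 0.936, adjusted p 0.949) and -0.010 at the chromosome 6 locus (exact permutation p 0.949, adjusted p 0.949). In RBFOX2 the RecJ group was 1.02-fold the group without it at the U2 window and 0.971-fold at chromosome 6, and the libraries overlapped. Of the 5 hnRNP strata, the libraries of hnRNP C titled 5k were apart at the U2 window, where the RecJ group was 1.19-fold higher (0.26 on the log2 scale, SD within groups 0.17). The share of all genes apart in that stratum was not computed. A p over the threshold does not show that RecJ has no effect.

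**Figure D2:**
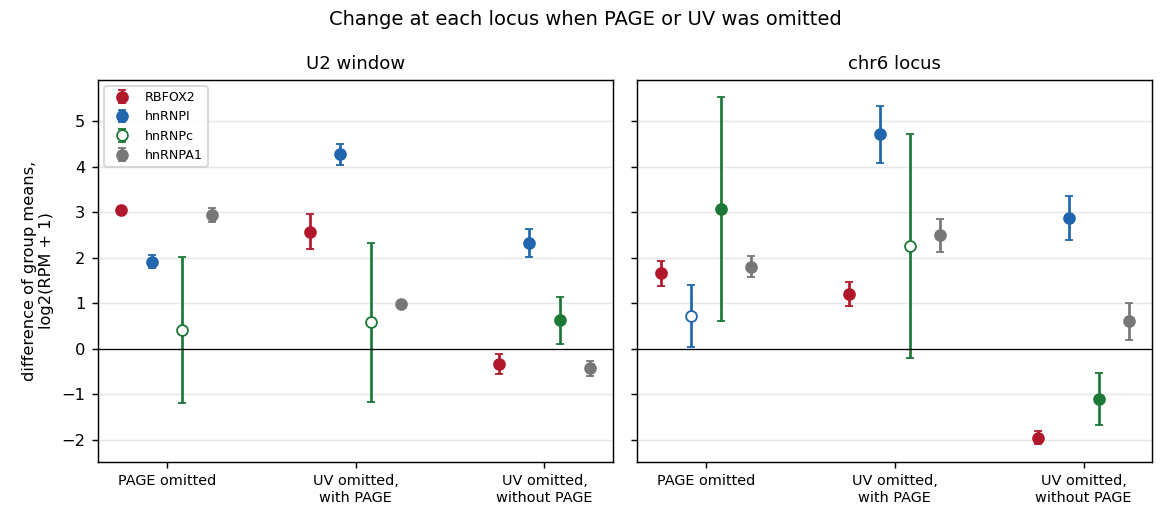
Difference of group means on the log2(RPM + 1) scale when PAGE or UV was omitted, per protein (2 against 2 libraries). Bars are the pooled SD within groups. Filled points mark groups that do not overlap, and hnRNP C bars are long where the library with 3268 peaks enters. That library did not list the chromosome 6 locus and enters as 0 there. The filled hnRNP C point for omitted PAGE at that locus includes this value.

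The libraries without UV ask which fragments come along without a crosslink. With PAGE kept, the share of U2 reads was higher without UV in RBFOX2, by 5.92-fold (2.57 on the log2 scale, SD within groups 0.39). The groups were apart, as for 8.97% of all genes in this direction and 62.2% in the other. The number of reads itself was lower, with 8466 and 11497 reads over the highest peak without UV against 22905 and 16687 with it. These RBFOX2 libraries listed 380885 and 303736 reads in all, against 4561849 and 3493964 with UV. With single RBFOX2 libraries left out, the log2 difference ran from 2.18 to 2.95. When all peaks were summed in place of the highest of each joined set, the log2 difference was 0.74. At chromosome 6 the share was 2.30-fold higher (1.20 on the log2 scale, and 0.49 with all peaks summed). By rank among genes the direction turned, from ranks 18 and 33 with UV to 35 and 42 without it, a difference of -0.43 percentile points.

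The other proteins differed in size. The share of U2 reads was 19.2-fold higher without UV in hnRNPI and 1.97-fold higher in hnRNPA1, both with groups apart (11.0% and 29.4% of all genes). In hnRNPI the read numbers over the highest peak were alike, 2189 and 2523 without UV and 2396 and 1983 with it, while the reads listed in all were 155606 and 248172 without UV against 3908462 and 3155979. In hnRNPA1 the highest peak held fewer reads without UV, 604 and 536 against 841 and 764. The rank of the window among genes in hnRNPA1 also fell, from 17 and 15 with UV to 71 and 72 without it. In hnRNP C the ratio was 1.49 and the libraries overlapped. The chromosome 6 locus was 26.2-fold higher in hnRNPI and 5.62-fold higher in hnRNPA1. Over the 3 hnRNP proteins the mean log2 difference was 1.94 at the U2 window, in 3 of 3 proteins (exact permutation p 0.0648, adjusted p 0.130), and 3.15 at chromosome 6 (exact permutation p 0.0278, adjusted p 0.0741). Without replicate 1 of hnRNP C with low RNase these were 2.48 (exact permutation p 0.00926, adjusted p 0.0370) and 2.33 (adjusted exact permutation p 0.0926). With 10 added in place of 1, the chromosome 6 value was 2.32.

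The accessions of the libraries without UV do not follow on from those of the 50k crosslinked ones, and a preparation batch and UV cannot be told apart there. The 10k libraries stand with the libraries without UV and were crosslinked, at 0.001 U of RNase and fewer cells. Against them the RBFOX2 libraries without UV were 2.40-fold higher at the U2 window and 1.68-fold higher at chromosome 6. The hnRNP C libraries without UV were 3.58-fold higher than hnRNP C 10k at the U2 window and 1.37-fold higher at chromosome 6. In all 4 comparisons the libraries did not overlap, but the share of all genes apart in this way was not computed.

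Without PAGE the direction depended on the protein. Omitting UV left the U2 window 0.792-fold as high in RBFOX2 and 0.742-fold in hnRNPA1, but 1.54-fold in hnRNP C and 5.03-fold in hnRNPI. All these groups were apart, as were 51.7% of all genes downward in RBFOX2, 37.8% downward in hnRNPA1, 23.4% upward in hnRNP C and 19.8% upward in hnRNPI. The chromosome 6 locus was 0.259-fold as high in RBFOX2 and 0.465-fold in hnRNP C, and 1.52-fold in hnRNPA1 and 7.32-fold in hnRNPI. These groups were apart too, as were 38.1% of all genes downward in hnRNP C and 34.3% upward in hnRNPA1. Over the 3 hnRNP proteins the mean log2 difference was 0.84 at the U2 window (exact permutation p 0.148, adjusted p 0.237) and 0.79 at chromosome 6 (exact permutation p 0.222, adjusted p 0.296), each in 2 of 3 proteins. With all peaks summed, the U2 value turned to -0.53 (adjusted exact permutation p 0.341), and in RBFOX2 it went from -0.34 to -1.84. The RBFOX2 value also rested on single libraries, with -0.12 when replicate 1 without UV and PAGE was left out and -0.56 when replicate 2 was.

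Cell number, RNase and gel region are given as values and were not tested. RBFOX2 10k was 2.46-fold above the reference group at the U2 window and 1.38-fold at chromosome 6, and 1k was 0.945-fold and 0.948-fold of 10k. Cell number and RNase changed together between these groups. The 10k and 1k libraries also stand with the libraries without UV, so a preparation batch cannot be told apart in comparisons with the reference group. In hnRNP C the U2 window had 641 and 710 RPM in the 10k libraries and 915 and 863 in the 1k libraries. In hnRNPA1, 0.025 U of RNase against 0.005 U went with 1.47-fold at the U2 window and 7.19-fold at chromosome 6, where the libraries had 50.7 and 43.6 against 4.96 and 6.47 RPM. In hnRNP C the U2 window had 903 and 679 RPM with 0.025 U, against 4941 and 529 with 0.005 U, a ratio of 0.485 with overlapping libraries. The 8 gel-region libraries had 847 to 12224 RPM at the U2 window, from highest peaks of only 34 to 195 reads.

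The position of the reads along U2 did not enter the choice of the loci. Positions are counted from 1 at the 5′ end of the window. Each peak comes with an inner interval of a few nucleotides, and the highest peak of a library was placed by the centre of that interval. Peaks reached the 5′ end of the window in all 68 libraries, and 65 listed a base just beyond it. Coverage thinned toward the 3′ end. Position 160 was covered in 32 libraries, position 170 in 6 and positions from 188 on in 0.

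In 8 of the 10 crosslinked RBFOX2 libraries the highest peak was at most 16 nt wide. In all 4 RBFOX2 libraries without PAGE, with and without RecJ, it spanned positions 62 to 75 (14 nt) with its inner interval at 62 to 65. With PAGE and 50k it spanned 61 to 74 and 62 to 74, with the inner interval at 63 to 66, and in both 10k libraries it spanned 62 to 75. The 1k libraries had wider ones, of 32 nt (60 to 91) and 92 nt (60 to 151). In all 24 crosslinked libraries without PAGE, RBFOX2 included, the centre of the highest peak lay between 57.5 and 64.5 (median 63.5). A narrow peak was not particular to RBFOX2. The highest peak was 9 to 16 nt wide in the crosslinked hnRNPI libraries. In the crosslinked hnRNP C libraries without PAGE titled 50k and 5k, it was 13 to 15 nt wide. The highest peak was wider in some other libraries of the hnRNP proteins. It spanned 24 to 74 in hnRNPA1 50k replicate 2, and 61 to 155 in replicate 2 of hnRNP C titled 500 with RecJ. With PAGE the centres of the 20 crosslinked libraries ran from 42.5 to 67.5 (median 64). The 3′ edge was shared, since the highest peak ended at positions 71 to 76 in 50 of the 60 libraries of the 4 proteins, with UV in 36 of 44 and without UV in 14 of 16.

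Without UV and PAGE the highest peak was wider and its centre lay farther 5′. It spanned positions 27 to 74 and 6 to 74 in RBFOX2, with the inner interval at 42 to 45 in both libraries. Over the 4 proteins the centres of all 8 such libraries lay between 43.5 and 46.5, while those of the 8 crosslinked 50k libraries without PAGE and RecJ lay between 57.5 and 63.5. The widths were 48 to 76 nt without UV, and with UV 14 to 51 nt, at most 16 nt in 7 of 8. The 2 sets of centres did not overlap. Of 4291 genes listed in all 16 libraries, 10 (0.233%) had the highest peak of every library without UV 5′ of that of every library with it, and 7 (0.163%) had it 3′. This comparison was made after the positions had been seen and has no test. As with the levels, a preparation batch and UV cannot be told apart between these sets. The same limit applies below to the 50k RBFOX2 libraries with and without UV.

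With PAGE the centres without UV were scattered. In RBFOX2 they lay at 42.5 and 57.5. Over the 8 libraries they ran from 40.5 to 137.5 (median 55), the last in an hnRNPA1 library whose highest peak spanned positions 119 to 174. That range overlapped the crosslinked libraries with PAGE.

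**Figure D3:**
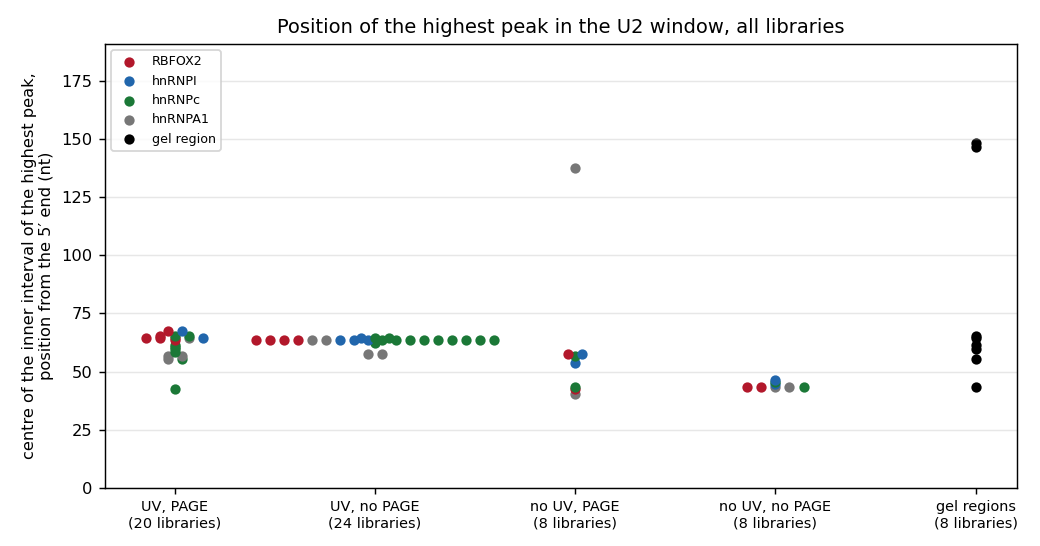
Centre of the inner interval of the highest U2 peak (position from the 5′ end, nt) in each of the 68 libraries, by UV and PAGE, coloured by protein. The 8 libraries without UV and PAGE lie between 43.5 and 46.5, below all 24 crosslinked libraries without PAGE (57.5 to 64.5). Between these sets a preparation batch and UV cannot be told apart.

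Peaks on the 3′ side were lower, relative to the library maximum, in RBFOX2 libraries without UV than in the crosslinked 50k ones without RecJ. Among peaks lying wholly beyond position 95, the highest had 37.7% and 45.3% of the library's highest read number with UV and PAGE. It had 24.9% and 25.2% with UV without PAGE, 24.8% and 13.3% with RecJ as well, 16.9% and 10.3% without UV and with PAGE, and 6.98% and 5.94% without both. Neither pair without UV overlapped its crosslinked 50k pair without RecJ, but the share of all genes with such a gap was not computed. The crosslinked 10k libraries with PAGE had 14.4% and 26.9%, and the lower of these lay within the pair without UV and with PAGE. In 1k replicate 1 it was 23.8%, and replicate 2 had no such peak. In hnRNPA1 the values with PAGE were 61.6% and 100% without UV, against 18.2% in the only crosslinked low RNase library with such a peak. In hnRNPI the order was not the same. The values were 15.4% and 12.6% with UV without PAGE and 16.8% and 35.5% without both. In 13 of the 60 libraries no peak lay wholly on that side, so no value is given for them. Some peaks crossed position 95 and were not counted there.

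The profile of RBFOX2 peaks showed a step near position 75 in each of these groups. At position 70 all 8 libraries stood at their maximum. At position 80 the crosslinked libraries with PAGE were at 59.2% and 60.0% of it and those without PAGE at 36.7% and 36.4%. Without UV the values there were 21.5% and 14.5% with PAGE, and 12.1% and 9.49% without. Toward the 5′ end, at position 30, the libraries with UV and PAGE were at 84.7% and 80.9% and all others between 93.0% and 100%.

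**Figure D4:**
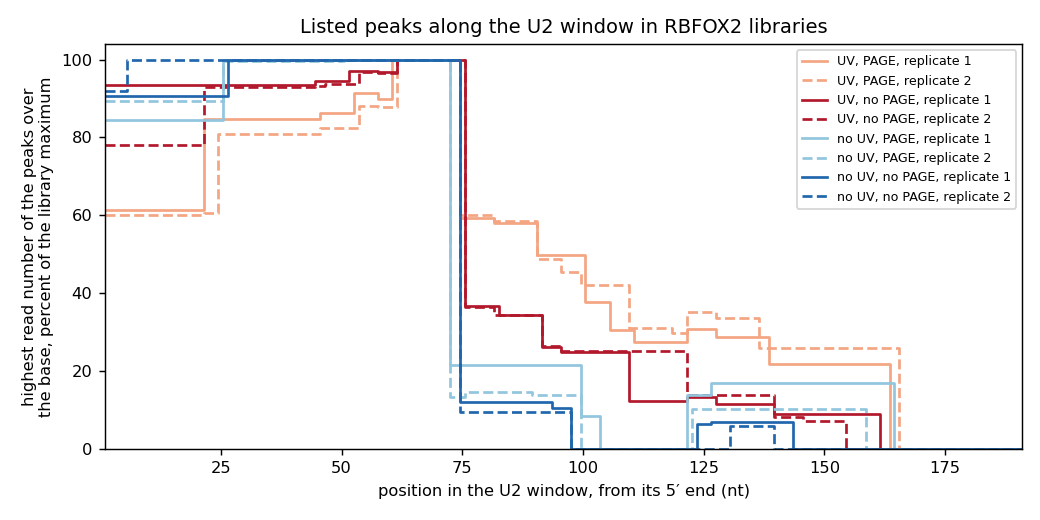
Highest read number of the peaks over each base of the U2 window, in percent of the library's maximum, against position from the 5′ end (nt), for 8 RBFOX2 libraries. All libraries drop near position 75, and beyond it the 4 without UV lie below the 4 with UV up to position 115.

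At the chromosome 6 locus the positions in RBFOX2 lay apart in libraries with and without UV. The share of all genes with such a split was not computed, and the split was not tested. The inner interval of the highest peak lay between 89773306 and 89773318 in the 10 crosslinked RBFOX2 libraries and between 89773294 and 89773302 in the 4 without UV, which is 3′ on the minus strand. The opposite holds for the U2 window without PAGE, where the highest peak lay farther 5′ without UV. In hnRNPI, both libraries without UV and PAGE had it at 89773313 to 89773317, within the range of crosslinked hnRNPI libraries.

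The genes whose levels followed the U2 window most closely were found by Pearson correlation over the 34 group means on the log2(RPM + 1) scale, as a description without a test. The closest was ENSG00000222328 (r = 0.996), which lists the same bases and is no separate observation. Next came ENSG00000242808 on chromosome 3 (r = 0.928), ENSG00000222414 on chromosome 10 (r = 0.856; peaks from 103124607 to 103124717), ENSG00000117425 on chromosome 1 (r = 0.795) and ENSG00000270022 on chromosome 22 (r = 0.790). The groups share antibodies and library totals, which enter every gene. Whether the identifiers elsewhere in the genome, or the chromosome 6 locus, share reads with the U2 window was not analysed. The chromosome 6 locus ranked 414 of 13308 genes (r = 0.468) with unlisted groups at 0. Over the 29 groups in which both libraries listed it, r was 0.855.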

How the data were processed

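The deposited files are 1 peak list per library, with no header, in 8 columns that hold the position, name, strand, p-value and inner interval of each peak. The file names give CLIPper as the peak caller, and peaks were listed per library. STAR 2.7.3a, UMI-tools 1.0.1, bcl2fastq and the build hg19 are named, without roles, per the submitters' processing notes. The p-value is the deposited value of the authors' caller, at most 0.00755 and often 0. The last number of the peak name, at least 4, is not explained in the sources used here. Here it stands for the reads over a peak.

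Python 3 scripts (pandas, NumPy) joined peaks, scaled read numbers per 1000000 listed, took log2 with a pseudocount of 1 and enumerated all relabellings. They were tested on simulated data. The 5 genes compared with the U2 window had the highest correlation with it among genes listed in at least 17 groups. A list of small nuclear RNA and U2 snRNP protein genes is not reported, since no table pairs symbols with these identifiers. No U2 sequence was in the files used here, so none is printed. Alternatives were a p-value limit of 1e-05, sums over all peaks, no joining gap, a pseudocount of 10, percentiles among genes, a total without the 100 top genes, each replicate left out and replicate number as a block. The loci, lists and comparisons were chosen with earlier results of these data known.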

Additional observations from a re-analysis of the deposited data

Results flagged for a closer look

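Without PAGE, omitting UV moved the loci in opposite directions in different proteins, with every library of one group on one side of the other. At the U2 window, hnRNPI and hnRNP C were higher without UV, and hnRNPA1 and RBFOX2 lower. The log2 differences of hnRNPI (2.33) and hnRNPA1 (-0.43) lay 2.76 apart. At the chromosome 6 locus, hnRNPI and hnRNPA1 were higher, and hnRNP C and RBFOX2 lower. The log2 differences of hnRNPI (2.87) and RBFOX2 (-1.95) lay 4.82 apart. Such gaps were common among all genes. They went downward for 51.7% in RBFOX2, 37.8% in hnRNPA1 and 38.1% in hnRNP C. Upward gaps held for 19.8% in hnRNPI, 23.4% in hnRNP C and 34.3% in hnRNPA1. With single libraries left out, the RBFOX2 value at the U2 window ran from -0.56 to -0.12. A preparation batch and UV cannot be told apart between these groups. The difference between proteins was not tested. No group has more than 2 libraries, so none was screened for outlying values.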

How the results depend on the processing

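Of the 338 recomputed values, 292 kept their direction and their side of the threshold or moved by less than the replicate spread. In hnRNPs, the value for UV omitted without PAGE at the U2 window turned to -0.53 when all peaks were summed and to -0.026 in percentile points. On that scale UV omitted with PAGE turned to -0.10 at the U2 window, and UV omitted without PAGE to -4.12 at chromosome 6. The RecJ values, near 0, turned to 0.036 and 0.035 at p below 1e-05. In RBFOX2 at the U2 window, PAGE omitted gave 2.91 at p below 1e-05, 2.11 with all peaks summed, 3.29 without the 100 top genes in the total and 3.09 without the second identifier in it (added after the data were seen). UV omitted gave 0.74 with PAGE and -1.84 without it when all peaks were summed, and 3.06 with PAGE without the top genes. At chromosome 6 in RBFOX2, UV omitted gave 0.49 and -2.62 with all peaks summed, and 1.70 and -1.80 without the top genes. In percentile points, the U2 window in RBFOX2 gave 0.0035, -0.0047 and 0.0 for PAGE, UV with PAGE and UV without PAGE, and chromosome 6 gave -0.00055, -0.43 and -0.76, while RBFOX2 against the others gave 0.070 and 7.09. In RBFOX2 libraries the U2 window is at or next to the top rank, so its percentile there has little room to rise. In hnRNPA1 with PAGE its rank was 17 and 15 with UV and 71 and 72 without it. The cause of the moves in this paragraph was not tested.

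With single replicates left out, PAGE omitted ranged from 1.22 to 2.29 at the U2 window and from 1.05 to 2.68 at chromosome 6. UV omitted with PAGE ranged from 1.40 to 2.48 and from 2.33 to 3.97, and UV omitted without PAGE from 0.67 to 1.01 and from 0.61 to 0.97. RecJ ranged from -0.10 to 0.084 and from -0.11 to 0.093. The 2 calls gained came without replicate 1 of hnRNP C with low RNase. In the fit with a replicate block the values were the same (1.75, 1.94, 0.84 and -0.0094 at the U2 window, and 1.87, 3.15, 0.79 and -0.010 at chromosome 6) and no call changed (adjusted exact sign-flip permutation p 0.167, 0.25, 0.35 and 0.924 at the U2 window, and 0.167, 0.167, 0.458 and 0.924 at chromosome 6). The labels do not say that the numbers pair samples. With 2 libraries per group and unknown depth, small differences are not resolved.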
